A study of Mus musculus with 6 samples.

Results

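The dual specificity phosphatases described here are 10 genes (Dusp1, Dusp2, Dusp4, Dusp5, Dusp6, Dusp7, Dusp10, Dusp14, Dusp16 and Dusp22) out of 20300 genes measured in sorted dendritic epidermal T cells (DETC), the γδ T cells that reside in mouse epidermis. They were chosen by gene symbol, and the choice was made with the difference between the genotypes in view, above all that of Dusp2. Their differences between the genotypes are therefore given as a description with errors and no p-value, and the counts of members past a threshold only beside the share of all genes. Each gene had 1 probe set on the array, and all 10 were found.

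DETC of 2 genotypes were compared on Clariom S Mouse arrays, on which short probes capture the transcripts of known mouse genes. Ahr-ko mice carried the B6.129-Ahrtm1Bra knockout on both alleles of Ahr, the gene of the aryl hydrocarbon receptor (AHR), a ligand-activated transcription factor, and Ahr-het littermates carried it on 1 allele and served as controls, so that every mouse had at least 1 knockout allele. The allele was present in all cells of the body and not in DETC alone. Mice of both sexes were 2 weeks old, DETC were sorted from back and belly epidermis by the γδ T cell receptor and its Vγ3 chain to a purity of 90 to 98%, and 3 arrays per genotype each held RNA pooled from 2 to 3 mice. The share of DETC among live epidermal cells was 2 to 4% in Ahr-ko mice and 10 to 15% in Ahr-het mice. Values are log2 expression values, and a difference of 1 on this scale is a doubling.

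MAP kinases (ERK, JNK and p38) carry signals from the T cell receptor and from cytokine receptors to the nucleus, and are switched on by phosphorylation of a threonine and a tyrosine in their activation loop. Dual specificity phosphatases remove both phosphates and so switch them off, and several of their genes are themselves induced by the pathway, which makes them part of a feedback loop. Dusp14 and Dusp22 are atypical members, small enzymes without the domain by which the classical MAP kinase phosphatases dock to their kinases, and both are known to act on signalling below the T cell receptor.

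The sequence before the transcription start is shown for the member that differed most between the genotypes (Dusp2), for the inducible member whose value hardly differed (Dusp1) and for the member with the second highest difference (Dusp10). Each is 250 bases long, ends at the base before the start of the RefSeq gene in GRCm38.p6 and is written in the direction of the gene. Dusp2 is at chr2:127335909-127336158 on the plus strand, Dusp1 at chr17:26508473-26508722 on the minus strand and Dusp10 at chr1:184034131-184034380 on the plus strand. Capitals mark matches to any of 4 words, searched on both strands: GCGTG (the core of the AHR response element), TGACGTCA (the cyclic AMP response element), TGANTCA (the AP-1 site) and CACGTG (the E-box).
Dusp2: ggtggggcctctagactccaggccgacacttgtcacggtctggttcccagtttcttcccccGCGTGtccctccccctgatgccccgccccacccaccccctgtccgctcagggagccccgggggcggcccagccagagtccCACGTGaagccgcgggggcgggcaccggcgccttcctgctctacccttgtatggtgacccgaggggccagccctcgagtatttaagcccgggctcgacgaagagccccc
Dusp1: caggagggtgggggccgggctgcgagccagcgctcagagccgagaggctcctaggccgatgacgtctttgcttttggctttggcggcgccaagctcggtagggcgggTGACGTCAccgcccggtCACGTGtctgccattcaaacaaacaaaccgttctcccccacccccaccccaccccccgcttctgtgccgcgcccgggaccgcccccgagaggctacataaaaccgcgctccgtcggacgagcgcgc
Dusp10: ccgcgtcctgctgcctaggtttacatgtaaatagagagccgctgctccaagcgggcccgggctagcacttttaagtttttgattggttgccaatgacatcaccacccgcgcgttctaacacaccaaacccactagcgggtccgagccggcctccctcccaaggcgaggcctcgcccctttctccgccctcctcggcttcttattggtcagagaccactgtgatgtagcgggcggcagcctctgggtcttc
The Dusp2 stretch holds GCGTG at bases -189 to -185 and CACGTG at -109 to -104 from the start. The Dusp1 stretch holds TGACGTCA at -143 to -136 and CACGTG at -126 to -121, and in the Dusp10 stretch none of the 4 words was found. Of the 10 genes, 9 had an entry in the RefSeq table of promoters and Dusp4 had none. GCGTG was found in 5 of the 9 (Dusp2, Dusp5, Dusp7, Dusp14 and Dusp22), against 28.2% of 32851 mouse promoters of the same length. In the 9 stretches 56.4 to 77.6% of the bases were G or C. The promoters they are set against were not matched for this share or limited to the measured genes, so no excess of any word is read from these counts. TGACGTCA was found in 1 of the 9 (1.55% of all promoters), CACGTG in 2 (6.02%) and TGANTCA in 0 (6.75%). No base lay in 2 words at once. A match describes the letters only and is not a measured binding site.

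The main pattern was that Dusp2 was high in Ahr-ko DETC and at background in Ahr-het DETC, while the other 9 genes were above background in both genotypes and differed less. To tell signal from background, each array was given a limit, the value that 95% of 1393 receptor genes of smell (olfactory and vomeronasal) did not exceed, since a T cell is not known to transcribe these genes. These limits lay at 7.55 to 7.63 (log2) for Ahr-ko and at 7.46 to 7.56 for Ahr-het. Values of different genes are not read as relative amounts of RNA, because probes differ in brightness.

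**Figure D1:**
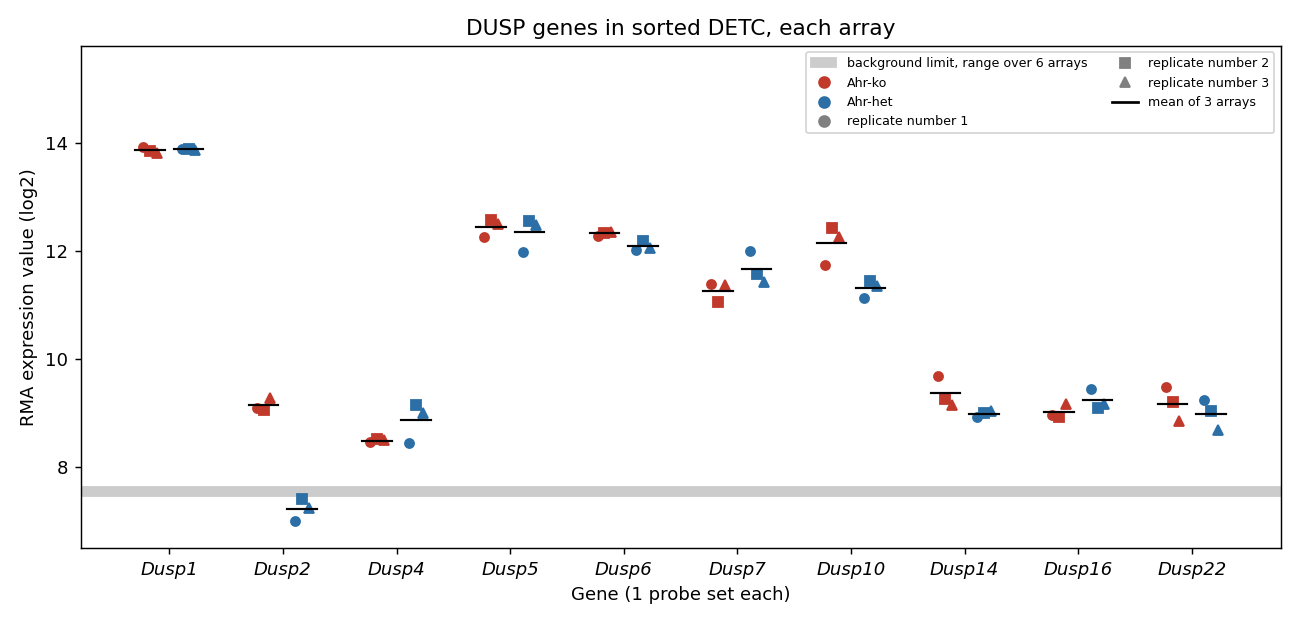
Log2 expression value (vertical axis) of the 10 genes (horizontal axis) on each array, with Ahr-ko (red) left of Ahr-het (blue), 1 symbol shape per replicate number, a black line for the mean of 3 arrays and a grey band for the background limit. For Dusp2 the Ahr-ko arrays lie between 9.07 and 9.29 and the Ahr-het arrays between 7.01 and 7.41, below the band.

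Dusp2 (gene ID 13537, chromosome 2) encodes a nuclear phosphatase that activated T cells induce as an early gene and that acts mainly on ERK and p38. Its values were 9.10, 9.07 and 9.29 on the Ahr-ko arrays, against 7.01, 7.41 and 7.24 on the Ahr-het arrays. The lowest Ahr-ko array was thus well above the highest Ahr-het array. The means were 9.15 ± 0.12 in Ahr-ko DETC and 7.22 ± 0.20 in Ahr-het DETC (SD, n = 3 arrays each), a log2 difference of 1.93 with a standard error of 0.13.
Against the background limit, Dusp2 was 1.56 ± 0.13 above it in Ahr-ko DETC, on 3 of 3 arrays, and at -0.30 ± 0.16 from it in Ahr-het DETC, with 0 of 3 arrays above it (SD, n = 3). The Ahr-het level is therefore only bounded, and the difference is at least 3.09-fold, which sets the Ahr-ko mean against the mean of the limits on the Ahr-het arrays. The measured values alone differ 3.81-fold. Whether the Ahr-het cells count as positive depended on the limit chosen: with the 90th percentile of the receptor genes as the limit, 3 of 3 Ahr-het arrays passed (margin 0.16), and with the 99th percentile 0 of 3 (-1.07).
Between arrays of equal replicate number the difference was 2.09 for number 1, 1.66 for number 2 and 2.04 for number 3, and it stayed between 1.83 and 2.02 when each array was left out in turn. In samples of bulk RNA, more cells that express a gene and more RNA per cell cannot be told apart.

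The other nuclear members had smaller differences than Dusp2. Dusp1 (gene ID 19252, chromosome 17) encodes an immediate early phosphatase of p38, JNK and ERK that also restrains inflammatory cytokines. Its values were 13.94, 13.85 and 13.81 on the Ahr-ko arrays and 13.89, 13.88 and 13.88 on the Ahr-het arrays, so the genotypes overlapped, with a difference of -0.016 (standard error 0.096). On array 1 of each genotype its value was the highest of any gene, and the highest values of the 6 arrays lay between 13.89 and 13.98. Dusp1 thus sat at the top of the measured scale, and whether that limits its difference was not tested.
Dusp4 (gene ID 319520, chromosome 8) encodes a nuclear phosphatase that is induced along with ERK activity. It had 8.47, 8.51 and 8.50 on the Ahr-ko arrays, against 8.46, 9.15 and 9.01 on the Ahr-het arrays. Of the Ahr-het arrays, 2 were above all Ahr-ko arrays and the array of number 1 was below them. The difference was -0.38 (standard error 0.18) and lay between -0.59 and -0.24 when each array was left out, and it was furthest from 0 without Ahr-het 1.
Dusp5 (gene ID 240672, chromosome 19) encodes a nuclear phosphatase specific for ERK. It had 12.26, 12.59 and 12.50 on the Ahr-ko arrays, against 11.99, 12.55 and 12.49 on the Ahr-het arrays. The genotypes overlapped, and within each genotype the array of number 1 was the lowest. The difference was 0.10 (standard error 0.17), and its sign turned in 1 of the 6 fits that left out an array, to -0.074 without Ahr-het 1.

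The cytosolic phosphatases of ERK had small differences of opposite sign. Dusp6 (gene ID 67603, chromosome 10) encodes the cytosolic phosphatase that gives feedback on ERK. It had 12.28, 12.34 and 12.36 on the Ahr-ko arrays, against 12.01, 12.18 and 12.07 on the Ahr-het arrays. The arrays of the genotypes did not overlap, and the difference was 0.24 (standard error 0.10), or 0.16 to 0.29 between arrays of equal number.
Dusp7 (gene ID 235584, chromosome 9) encodes a close relative of Dusp6 with the same kinase as its target. It had 11.39, 11.06 and 11.37 on the Ahr-ko arrays, against 12.01, 11.57 and 11.43 on the Ahr-het arrays. All Ahr-ko arrays were below all Ahr-het arrays, but Ahr-ko 1 and Ahr-het 3 came close to each other. The difference was -0.40 (standard error 0.17), and between arrays of equal number it was -0.62, -0.52 and -0.054.

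Among the phosphatases of JNK and p38, Dusp10 had the second highest difference of the 10 genes. Dusp10 (gene ID 63953, chromosome 1) encodes a phosphatase that limits JNK in T cells. Its values were 11.75, 12.43 and 12.25 on the Ahr-ko arrays, against 11.13, 11.45 and 11.36 on the Ahr-het arrays. All Ahr-ko arrays were above all Ahr-het arrays, and in both genotypes the array of number 1 was the lowest. The means were 12.14 ± 0.35 in Ahr-ko DETC and 11.31 ± 0.17 in Ahr-het DETC (SD, n = 3), a difference of 0.83 (standard error 0.18) or 1.78-fold. Between arrays of equal number it was 0.62, 0.97 and 0.89, and with the replicate number as a block its standard error was 0.11.
Dusp16 (gene ID 70686, chromosome 6) encodes a related phosphatase of JNK and p38. It had 8.97, 8.92 and 9.17 on the Ahr-ko arrays, against 9.44, 9.11 and 9.16 on the Ahr-het arrays. The genotypes overlapped, with a difference of -0.22 (standard error 0.13) that ranged from -0.48 to 0.0052 between arrays of equal number.

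The atypical members were both higher on average in Ahr-ko DETC. The difference was above the spread within a genotype (pooled SD) for Dusp14 (0.38 against 0.21) and below it for Dusp22 (0.19 against 0.30). Dusp14 (gene ID 56405, chromosome 11) encodes a negative regulator of T cell receptor signalling. It had 9.70, 9.25 and 9.16 on the Ahr-ko arrays, against 8.92, 9.01 and 9.04 on the Ahr-het arrays. The arrays did not overlap, and the difference was 0.38 (standard error 0.15). Ahr-ko 1 was the highest array, and without it the difference was 0.22.
Dusp22 (gene ID 105352, chromosome 13) encodes a phosphatase that inactivates the kinase LCK below the T cell receptor. It had 9.48, 9.20 and 8.85 on the Ahr-ko arrays, against 9.24, 9.04 and 8.68 on the Ahr-het arrays. The array of number 1 was the highest and that of number 3 the lowest in both genotypes. The difference was 0.19 (standard error 0.19), with 0.24, 0.16 and 0.17 between arrays of equal number, and with the replicate number as a block its standard error was 0.097.

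**Figure D2:**
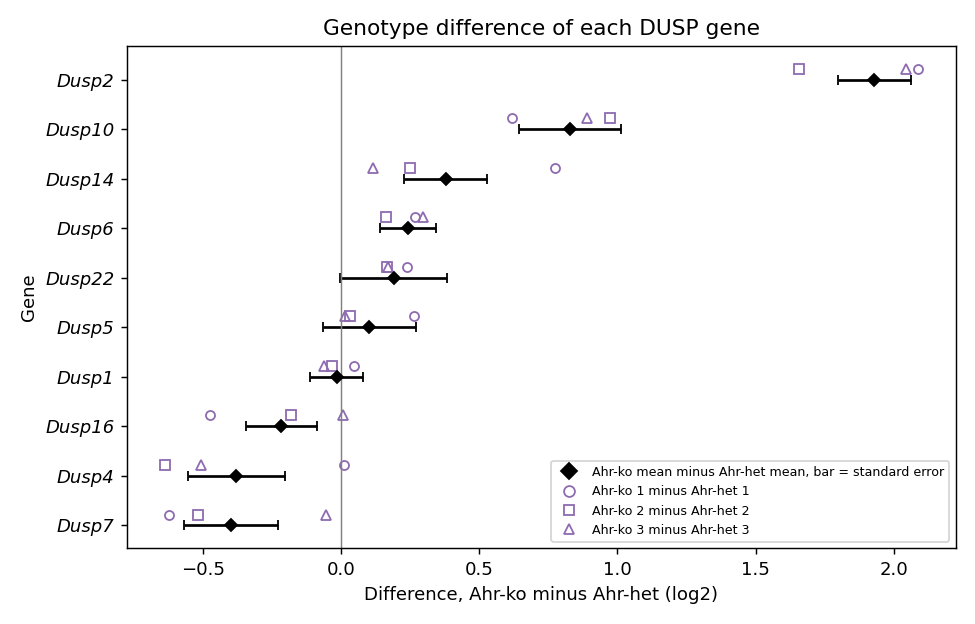
Log2 difference of Ahr-ko minus Ahr-het (horizontal axis) for each gene (vertical axis), with the difference of the means and its standard error in black and the difference between arrays of equal replicate number as open symbols. Dusp2 stands at 1.93 and Dusp10 at 0.83, while the other 8 genes lie between -0.40 and 0.38.

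Counted together, 1 of the 10 genes (Dusp2) was past an adjusted p of 0.05 in limma over all genes, where 3.14% of the 20300 genes were past it, 1.58% as higher and 1.57% as lower in Ahr-ko DETC. With the replicate number as a block, Dusp10 joined Dusp2, where 7.58% of all genes were past the threshold. Without overlap between the arrays of the genotypes were 4 genes that were higher (Dusp2, Dusp6, Dusp10 and Dusp14) and 1 that was lower (Dusp7), against 18.7% of all genes in either direction. Nothing is read from these counts, since the genes were selected on this contrast. The median difference was 0.15 over the 10 genes, 0.10 over the 9 without Dusp2 and 0.0038 over all genes. In absolute size the medians were 0.31 for the 10 genes, 0.24 for the 9 and 0.12 for all genes, while the spread within a genotype (pooled SD) was also larger, with medians of 0.23, 0.25 and 0.16. Leaving out 1 array added Dusp10 to the count (without Ahr-ko 1) or Dusp4 (without Ahr-het 1).

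The other genes of the DUSP family that were measured are mostly atypical enzymes. Of 17 genes, 0 were past the threshold in limma (3.14% of all genes), and 0 as higher and 3 as lower at an unadjusted p under 0.05 (13.2% of all genes), namely Dusp3, Dusp8 and Dusp28, named after their values were seen. These counts are near the shares of all genes. Their median difference was -0.0056, with a range from -0.45 to 0.60, and 10 of the 17 were above the background limit on all Ahr-ko arrays and 11 on all Ahr-het arrays. The brightest, Dusp11, whose product acts on RNA, had 12.55, 12.60 and 12.64 on the Ahr-ko arrays, against 12.66, 12.56 and 12.46 on the Ahr-het arrays. Dusp19, whose product binds a kinase of the JNK pathway, had a difference of -0.22 (standard error 0.20). With the replicate number as a block, 1 of the 17 was past the threshold, Dusp18 (0.60, adjusted p = 0.00854 in limma with the block and 0.717 without), which was above the background limit on 1 of 3 arrays of each genotype.

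The wider MAP kinase pathway was described by 10 lists from general knowledge, the 17 other DUSP genes included, with 135 measured genes. Of these 4 were higher and 3 lower in Ahr-ko DETC in limma, with a median difference of -0.027. The 7 genes compare with 3.14% of all genes. With the replicate number as a block, 8 were higher and 12 lower, where 7.58% of all genes passed.

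**Figure D3:**
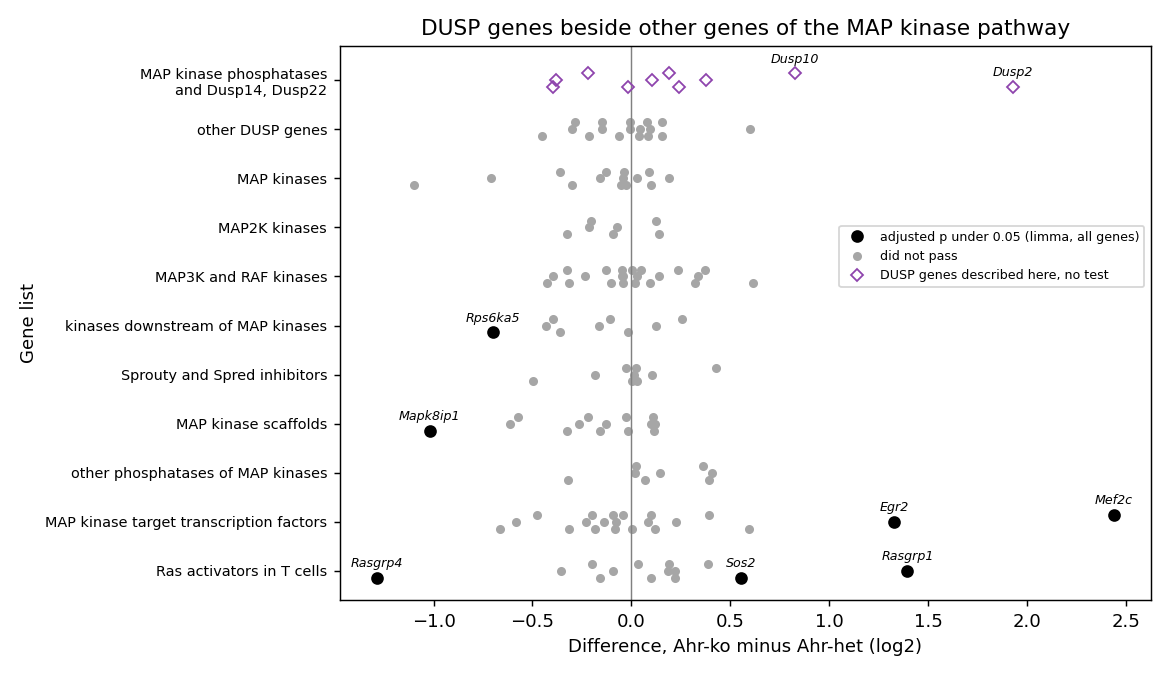
Log2 difference of Ahr-ko minus Ahr-het (horizontal axis) of each gene in the lists of the MAP kinase pathway (vertical axis), with the 10 DUSP genes as open diamonds (no test marked) and the other genes as points, in black where the adjusted p of limma was under 0.05. Dusp2 (1.93) and Mef2c (2.44) are the points furthest to the right and Rasgrp4 (-1.29) the point furthest to the left.

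Kinases that these phosphatases act on, and those above them, were near the share of all genes. None of 14 MAP kinases, 7 MAP2K kinases and 22 MAP3K and RAF kinases passed the threshold in limma, with 2, 0 and 5 genes at an unadjusted p under 0.05. With 3.14% of all genes past the threshold and 13.2% at an unadjusted p under 0.05, these counts do not set the kinases apart. Mapk3, which encodes the kinase ERK1, had 13.16, 12.72 and 12.91 on the Ahr-ko arrays, against 13.03, 12.85 and 12.83 on the Ahr-het arrays. Mapk11, which encodes a p38 kinase, had a difference of -0.36 (standard error 0.23), and Map2k1, which encodes the ERK activator MEK1, of 0.14 (standard error 0.10). Map2k7, an activator of JNK, had -0.20 (standard error 0.15), Map3k8, a kinase that activates ERK, 0.093 (standard error 0.22), and Araf, a RAF kinase, -0.40 (standard error 0.12). With the replicate number as a block, Mapk10 (-1.10, adjusted p = 0.0310), Mapk12 (-0.71, adjusted p = 0.0106), Araf (-0.40, adjusted p = 0.0490) and Map3k13 (-0.42, adjusted p = 0.0400) were lower and Map3k1 (0.61, adjusted p = 0.0189) was higher in limma, of which Mapk10 was below the background limit on all Ahr-ko arrays and on 2 of 3 Ahr-het arrays.

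Activators of Ras in T cells, which start the route to ERK, included genes that changed in both directions. Of 14 genes, 2 were higher and 1 lower in limma, where 1.58% of all genes were higher and 1.57% lower. Rasgrp1, which encodes the Ras exchange factor that responds to diacylglycerol below the T cell receptor, had 10.85, 10.57 and 10.65 on the Ahr-ko arrays, against 9.23, 9.37 and 9.29 on the Ahr-het arrays. It rose by 1.40 in Ahr-ko DETC (standard error 0.11, adjusted p = 3.29e-04 in limma), and the arrays of the genotypes did not overlap. Rasgrp4, which encodes another exchange factor of the same family, had 11.68, 11.15 and 11.50 on the Ahr-ko arrays, against 12.91, 12.72 and 12.57 on the Ahr-het arrays. It was lower in Ahr-ko DETC, with a difference of -1.29 (standard error 0.16, adjusted p = 0.00307 in limma). Sos2, which encodes an exchange factor recruited by GRB2, had a difference of 0.55 (standard error 0.11, adjusted p = 0.0331 in limma). Its call was lost when any array but Ahr-het 1 was left out, with an adjusted p of 0.0738 without Ahr-ko 1, 0.0826 without Ahr-ko 2, 0.111 without Ahr-ko 3, 0.157 without Ahr-het 2 and 0.145 without Ahr-het 3.

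Of 21 transcription factors that MAP kinases target or induce, 2 were higher and 0 lower in limma, where 1.58% of all genes were higher and 1.57% lower. Mef2c, a factor that p38 phosphorylates, had 9.55, 8.68 and 8.73 on the Ahr-ko arrays, against 6.65, 6.66 and 6.35 on the Ahr-het arrays, all of them below the background limit. The rise was at least 2.76-fold (log2 difference of the measured values 2.44, standard error 0.23, adjusted p = 7.94e-04 in limma). Egr2, an early gene below ERK, had 11.75, 10.69 and 10.96 on the Ahr-ko arrays, against 9.74, 9.80 and 9.86 on the Ahr-het arrays. Its difference was 1.33 (standard error 0.24, adjusted p = 0.0246 in limma), and the adjusted p was 0.0830 without Ahr-ko 3, 0.0536 without Ahr-het 1, 0.109 without Ahr-het 2 and 0.0926 without Ahr-het 3. With the block for replicate number, the early genes Fos (-0.58, adjusted p = 0.0357), Jun (-0.48, adjusted p = 0.0296) and Atf3 (-0.66, adjusted p = 0.0279) were lower in Ahr-ko DETC in limma. Without the block their adjusted p was 0.113, 0.340 and 0.601.

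Downstream kinases, scaffolds and other inhibitors held 2 calls, against 3.14% of all genes. Mapk8ip1, which encodes a scaffold for JNK, had 9.70, 9.36 and 9.14 on the Ahr-ko arrays, against 10.43, 10.39 and 10.43 on the Ahr-het arrays, and was the 1 gene of 14 scaffolds and adaptors that passed, as lower (-1.02, standard error 0.15, adjusted p = 0.00714 in limma). Rps6ka5, which encodes a nuclear kinase below ERK and p38, was the 1 gene of 9 downstream kinases that passed, as lower (-0.70, standard error 0.13, adjusted p = 0.0249 in limma). The call of Rps6ka5 was lost in 5 of 6 fits without 1 array, with an adjusted p of 0.0929 without Ahr-ko 2, 0.125 without Ahr-ko 3, 0.0583 without Ahr-het 1, 0.0954 without Ahr-het 2 and 0.103 without Ahr-het 3. The calls of Mapk8ip1, Rasgrp1, Rasgrp4 and Mef2c were kept in all 6 such fits.
Among 9 Sprouty, Spred and Ras GAP genes, which limit the pathway at Ras and RAF, 0 passed in limma. At an unadjusted p under 0.05 were 2 of them, Rasa1 and Spry1 (13.2% of all genes). Spry1 had a difference of -0.50 (standard error 0.20) and was below the background limit on all arrays. The 2 brightest were Spry2, with a difference of 0.024 (standard error 0.14), and Rasa1, a Ras GAP, with 0.43 (standard error 0.15). Of 8 other phosphatases that act on MAP kinases, 0 passed. At an unadjusted p under 0.05 were 2 of them (13.2% of all genes). These were Ptpn7 (0.41, standard error 0.14) and Ptprr (0.36, standard error 0.14), the latter below the background limit on all arrays. The 2 brightest were Ptpn5, a tyrosine phosphatase of ERK and p38, with 0.39 (standard error 0.19), and Ppm1b, a phosphatase of the PP2C family, with 0.070 (standard error 0.13). With the replicate number as a block, Rasa1 (adjusted p = 0.0307) and Ptpn5 (adjusted p = 0.0430) were higher and the scaffold list also held Gadd45a (-0.61, adjusted p = 0.0183) and Gadd45g (-0.57, adjusted p = 0.0144) as lower in limma.

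The genes with the highest correlation to Dusp2 over the 6 arrays included effector genes of lymphocytes. Among 11734 genes above the background limit on all arrays of at least 1 genotype, the 5 with the highest Pearson correlation to Dusp2 over the 6 arrays were Ifng (r = 0.999), Gzmf (0.998), Sh2d1b2 (0.996), Klhl6 (0.996) and Ms4a4b (0.995). These values are a description with no test, since the 6 arrays fall into 2 genotypes that Dusp2 separates. For deviations from the genotype means, r was 0.965, 0.886, 0.784, 0.766 and 0.728 in the same order. The 5 genes were picked by r over the same arrays, which these deviations are part of. High values were thus selected for and are no separate support for a likeness. Ifng, the cytokine gene of interferon gamma, had 10.39, 10.34 and 10.87 on the Ahr-ko arrays, against 6.26, 6.94 and 6.82 on the Ahr-het arrays. As with Dusp2 and Ms4a4b, all Ahr-het arrays were below the background limit, so that its r rests in part on values not above background, and the difference was at least 8.07-fold. Gzmf, which encodes granzyme F, had 10.78, 10.96 and 11.24 on the Ahr-ko arrays, against 8.06, 8.45 and 8.36 on the Ahr-het arrays. Among the other DUSP genes Dusp6 was closest to Dusp2 over the 6 arrays (r = 0.950), followed by Dusp10 (0.897). For deviations from the genotype means, r was 0.859 for Dusp6 and 0.430 for Dusp10. It was also high for Dusp4 (0.838) and Dusp5 (0.747), whose r over the 6 arrays was -0.573 and 0.341. For Dusp1, Dusp7, Dusp14, Dusp16 and Dusp22 the r of deviations was negative.

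**Figure D4:**
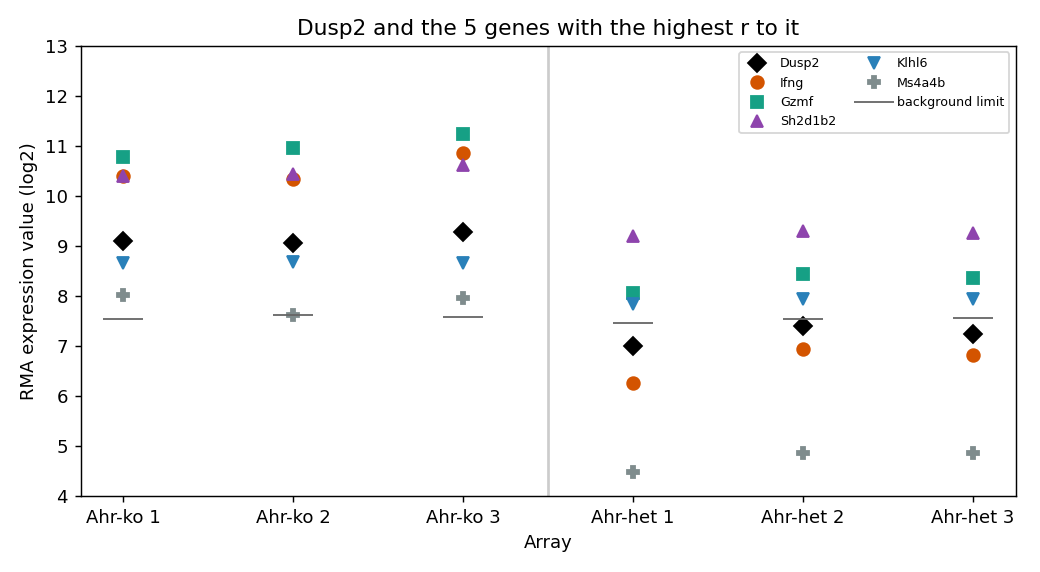
Log2 expression value (vertical axis) of Dusp2 and of the 5 genes with the highest r to it on each array (horizontal axis), Ahr-ko left and Ahr-het right, with the background limit of each array as a short line. All 6 genes are higher on every Ahr-ko array than on any Ahr-het array, and in both genotypes Ifng and Dusp2 lie on the same side of the limit.

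Several facts of the samples stood beside the Dusp2 difference. The probe set of Ahr had 10.00, 10.40 and 10.39 on the Ahr-ko arrays, against 10.77, 10.62 and 10.72 on the Ahr-het arrays (difference -0.44, standard error 0.13, adjusted p = 0.177 in limma), and where its probes lie relative to the deleted part is not given in the sources used here, so it does not check the deletion. Of 6 target genes of AHR, 1 passed (3.14% of all genes did), Ahrr, as lower in Ahr-ko DETC (-1.45, standard error 0.14, adjusted p = 8.93e-04 in limma). Tiparp had a difference of -0.90 (standard error 0.33) and did not pass, and Cyp1a1, Cyp1a2, Cyp1b1 and Nqo1 were below the background limit on all arrays, with differences of 0.12, -0.24, 0.029 and 0.27. The 8 DETC markers were all above the limit on every Ahr-ko array and 7 of them on every Ahr-het array (Ccr10 on 2 of 3), and 1 of the 8 passed in limma, as higher, Klre1, a receptor gene of the NK complex (0.55, adjusted p = 0.0250).
Some markers of other lymphocytes were higher in Ahr-ko DETC, as Dusp2 was, and others were lower. Of all genes, 1.58% passed as higher and 1.57% as lower in limma. Of 4 NK cell and ILC markers measured, 3 were higher in Ahr-ko DETC, among them Eomes (at least 6.54-fold) and Ncr1, both below the limit on all Ahr-het arrays, and the summed log2 level of the list was 36.0 to 38.7 in Ahr-ko DETC and 31.4 to 32.7 in Ahr-het DETC. The remaining marker, Klrb1c, went the other way (-0.83, standard error 0.32). It did not pass without the block and was lower past the threshold with the replicate number as a block. Of 6 αβ T cell markers, 3 were higher, among them Cd6 (1.91) and Cd8a (1.67), and 1 lower, Themis (-0.61). The summed levels were 54.4 to 54.8 in Ahr-ko DETC and 51.5 to 51.9 in Ahr-het DETC. Cd4 (-0.35) and Cd5 (-0.35) also had negative differences and did not pass. This sum thus joins genes that went in both directions and does not describe the αβ T cell markers as a group. For γδ T cells of the IL-17 type, 2 of 9 markers were higher, Ccr2 (at least 9.56-fold) and Cd163l1 (1.89), with sums of 75.4 to 75.8 in Ahr-ko DETC and 68.3 to 71.4 in Ahr-het DETC. The median difference of the 9 markers was 0.0044, and Il23r and Ccr6 were below the limit on all arrays of both genotypes.
Markers of non-lymphoid cells held 2 genes that passed, where 3.14% of all genes passed. Of 6 Langerhans cell markers only Itgax passed, as higher (at least 19.8-fold, log2 difference of the measured values 4.71). The sums of the list were 51.9 to 54.0 in Ahr-ko DETC and 47.2 to 48.3 in Ahr-het DETC, a gap that comes from Itgax. The differences of the other markers lay between -0.28 (Epcam) and 0.25 (Csf1r). Cd207 (0.12) was above the limit on 1 of 3 arrays of each genotype, and Csf1r was below it on all arrays. Of 10 keratinocyte markers 1 passed, Dsp, as lower (89.2 to 93.0 in Ahr-ko DETC and 90.8 to 93.9 in Ahr-het DETC), and none of the mast cell, melanocyte, fibroblast or myeloid markers passed. The calls of Eomes, Ccr2, Cd163l1, Itgax, Dsp and Ahrr were kept in all 6 fits without 1 array. That of Ncr1 was lost without Ahr-ko 3 (adjusted p = 0.0968 in limma), Ahr-het 1 (0.0634), Ahr-het 2 (0.160) or Ahr-het 3 (0.134), and that of Klre1 without Ahr-ko 2 (0.0671), Ahr-ko 3 (0.131), Ahr-het 2 (0.130) or Ahr-het 3 (0.0922). Those of Cd6 and Cd8a were lost without Ahr-ko 3 (0.0517 and 0.0666) or Ahr-het 2 (0.0548 and 0.0509). Without 1 array the count of higher NK cell and ILC markers was 1 to 2 (1, Eomes, without Ahr-ko 3, Ahr-het 2 or Ahr-het 3), and that of higher αβ T cell markers 0 to 3 (0 without Ahr-ko 3 or Ahr-het 2). The lower αβ T cell marker was lost without any array but Ahr-ko 1. The part of other cells, and that of the sex of the pools, in the Dusp2 difference was not tested.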

How the data were processed

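Sorted DETC were profiled on 6 Clariom S arrays, 3 Ahr-ko and 3 Ahr-het. The deposited values are on a log2 scale, and the authors obtained them by robust multichip average (RMA). The build of the probe annotation is not given in the sources used here. A deposited table pairs probe sets with gene IDs, and its log2 fold changes and p-values, the authors' own comparison, were not used. Of 29129 probe sets 20435 name a gene, and the brightest stood for each of 20300 genes. Array medians were 8.02 to 8.05 (log2). Precision is limited by the 6 arrays.

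A linear model per gene was fitted with limma 3.58.1 (lmFit, eBayes; R 4.3.3), two-sided, with Benjamini-Hochberg adjustment over 20300 genes and a threshold of 0.05, and was tested on simulated data. The p-values reflect the variation among pools of the same genotype. Members, lists and alternatives (replicate block, normalization, probe sets, background limit, array weights, left-out arrays) were chosen with earlier results of these data known. Named are Ahr, the members, up to 4 called genes of each pathway list or, where none passed, the 2 brightest, the 5 genes most like Dusp2 and up to 2 called genes of each marker list. Genes named for a call with the block only, the AHR target genes and markers below the limit were chosen after their values were seen. So were Klrb1c, Themis, Cd4, Cd5, Cd207, Epcam, Spry1, Ptpn7 and Ptprr.

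Deviations of arrays of equal number from their genotype means correlated over genes (0.572, 0.369 and 0.207 for numbers 1, 2 and 3), so equal numbers may be pairs. Values come from the fit without the replicate number, and those with it as a block are named as such. What a number means is not in the labels, and arrays 2 and 3 also correlated across genotypes (0.236 and 0.336). Both values lie above that of the equal number 3 (0.207), so pairs are not shown for numbers 2 and 3. Promoters came from RefSeq (GRCm38.p6).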

Additional observations from a re-analysis of the deposited data

How the results depend on the processing

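The log2 difference of Dusp2 kept its sign and size under every alternative (1.92 to 1.94, 1.85 without both arrays of number 1, and 1.83 to 2.02 without 1 array). Some alternatives cannot move a difference of means here, since each DUSP gene had 1 probe set. These are the replicate block, the filter on dim genes, the intensity trend and the 2 alternatives on probe sets. They change the error or the adjusted p only. Of 135 differences of the other 9 DUSP genes under alternatives, 135 moved by less than the spread between arrays, a count that includes the alternatives that cannot move them. The counts of calls depended on the fit. The genes changed numbered 638, against 1538 with the replicate block, 1716 with array weights, 1147 without both arrays of number 1, and 342 to 644 without 1 array (342 without Ahr-ko 3, 355 without Ahr-het 2, 371 without Ahr-het 3). DUSP genes past the threshold numbered 1 (Dusp2), against 2 with the replicate block and with a filter on dim genes (Dusp10 added), 3 with array weights and without both arrays of number 1 (Dusp10 and Dusp4 added), and 1 to 2 without 1 array. Genes of the MAP kinase lists numbered 7, against 20 with the replicate block, 17 with array weights, 15 without both arrays of number 1, 4 with all probe sets in the fit, and 4 to 9 without 1 array (4 without Ahr-ko 3, Ahr-het 2 or Ahr-het 3). The cause of these shifts was not tested. The margin of Dusp2 over the background limit was 1.56 in Ahr-ko DETC and -0.30 in Ahr-het DETC, against 2.05 and 0.16 with the 90th percentile and 0.78 and -1.07 with the 99th. Of 150 counts in single lists 29 moved by over 1.5 times, and of 144 margins of the other DUSP genes 36 moved by more than the spread between arrays. Levels near the background limit and at the top of the scale (Dusp1) limit what these arrays can show.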
